A study of Rattus norvegicus with 32 samples.

Results

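The probe sets for the respiratory chain and ATP synthase made up 102 of the 8799 probe sets on the array and stood for 56 of its 4736 genes with a symbol. They were chosen by gene symbol alone: a single symbol beginning with Nduf, Sdha, Sdhb, Sdhc, Sdhd, Uqcr, Cox4, Cox5, Cox6, Cox7, Cox8 or Atp5, or equal to Cycs or Cyc1. No measured value entered this rule, though it was set with earlier results of these data known. Of the 102, 89 probe sets passed the filter on low signal (at least 5 of the 30 arrays above 78.4, the median of all signals) and were tested among 5039 probe sets. The remaining 13 were not tested, and Cox6c-ps1 was the 1 gene left without a tested probe set. The 55 tested genes were 24 of complex I, 1 of complex II, 4 of complex III, 12 of complex IV, 9 of complex V and 5 assembly factors or associated genes. Where a gene had several probe sets, the one with the highest mean log2 signal stood for it.

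The series compared RNA of normal mammary gland between rat strains, and its title names inherited susceptibility to mammary carcinogenesis as the question. There were 5 arrays for each of 6 groups: inbred ACI, BUF/N, Cop, F344 and WF rats, and the first-generation hybrid (F1) of Cop and F344. The labels name no treatment, age or genetic modification. Nothing in them states whether separate animals gave the 5 samples of a group, so each p-value reflects only how far these samples differ, which could be technical spread.

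The respiratory chain sits in the inner mitochondrial membrane and passes electrons from NADH (complex I) and succinate (complex II) through complex III and cytochrome c to oxygen (complex IV). Complexes I, III and IV pump protons, and complex V, the ATP synthase, uses the return flow to make ATP. Several complex IV subunits have tissue-specific isoforms: Cox6a2 and Cox8b are the forms of heart and skeletal muscle, and Cox6a1 and Cox8a are made in most tissues. In bulk mammary gland, the RNA comes from epithelium, fat, vessels and any adjoining muscle, and fewer cells of a type cannot be told apart from less RNA per cell.

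The promoters of 4 genes are shown because the muscle isoforms, 1 ubiquitous partner and Ndufa5 carry contrasts described further on. Each is the 250 bases before the start site of the RefSeq promoter table, build GRCr8, written 5′ to 3′ on the gene's strand, with matches to the motifs searched in capitals. Cox6a2 lies at chr1:192219717-192219966 (minus strand), Cox8b at chr1:205408274-205408523 (minus strand), Cox8a at chr1:213833624-213833873 (minus strand) and Ndufa5 at chr4:53971236-53971485 (minus strand). The last 3 windows adjoin the 5′ end of the gene's annotated span. The Cox6a2 window lies inside that span (chr1:192218970-192221188), because its start site is 1472 bases downstream of the outermost 5′ end, so it is the window of an internal start.
Cox6a2: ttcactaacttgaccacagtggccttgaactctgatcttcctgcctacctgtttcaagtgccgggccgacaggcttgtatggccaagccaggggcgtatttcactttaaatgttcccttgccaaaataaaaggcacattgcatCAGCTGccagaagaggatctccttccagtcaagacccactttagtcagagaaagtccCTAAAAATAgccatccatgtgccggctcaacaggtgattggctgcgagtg
Cox8b: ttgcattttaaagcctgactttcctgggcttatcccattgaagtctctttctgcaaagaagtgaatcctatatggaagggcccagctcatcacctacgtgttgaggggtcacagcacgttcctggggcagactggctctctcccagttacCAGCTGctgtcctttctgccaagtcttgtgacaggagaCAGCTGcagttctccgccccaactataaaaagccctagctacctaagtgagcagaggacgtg
Cox8a: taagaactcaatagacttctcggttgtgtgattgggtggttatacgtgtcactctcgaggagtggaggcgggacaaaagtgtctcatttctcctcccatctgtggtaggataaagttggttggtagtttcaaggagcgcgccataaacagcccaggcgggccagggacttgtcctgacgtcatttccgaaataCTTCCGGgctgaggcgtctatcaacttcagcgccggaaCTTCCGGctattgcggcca
Ndufa5: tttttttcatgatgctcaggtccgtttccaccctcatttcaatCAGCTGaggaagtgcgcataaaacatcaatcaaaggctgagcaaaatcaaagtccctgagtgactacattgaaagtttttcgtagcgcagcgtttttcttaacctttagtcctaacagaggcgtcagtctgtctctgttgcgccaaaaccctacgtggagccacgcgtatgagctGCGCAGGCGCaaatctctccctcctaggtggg
The motifs, on both strands, were the NRF-1 core (capitals near the end of the Ndufa5 window, with any base at its sixth position), CCGGAAG (ETS factors), CTAAAAATA (MEF2) and the E-box CAGCTG. The window before the internal start of Cox6a2 held 1 MEF2 match and 1 E-box, and that of Cox8b held 2 E-boxes. Cox8a held 2 ETS matches, and Ndufa5 held 1 NRF-1 match and 1 E-box. Over 33469 promoters of this length, the NRF-1 core occurred in 3.75%, the ETS letters in 7.27%, the MEF2 letters in 0.442% and the E-box in 11.97%. Among the 47 promoters matched to these genes by symbol, the numbers were 5, 9, 1 and 8, and 31 of the 47 adjoined the outermost 5′ end of the gene. A match describes the letters of the window, and binding was not measured.

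The authors' deposited signals had been scaled to a common trimmed mean (250.3 to 250.4 on every array), with array medians of 65.8 to 102.1. Of the cell type markers, 11 of 11 luminal epithelial genes on the array passed the filter, as did 16 of 16 adipocyte genes and 19 of 25 skeletal muscle genes. The F1 arrays formed 2 sets: F1 2 and F1 3 correlated with each other at r = 0.96 over the tested probe sets, and with F1 1, F1 4 and F1 5 at 0.85 to 0.89. F1 1, F1 4 and F1 5 correlated among themselves at 0.95 to 0.98. F1 2 and F1 3 both lay below the other F1 arrays in 28.5% of tested probe sets and both above them in 31.9%. The ACI arrays also formed 2 sets. ACI 2 and ACI 5 correlated with each other at 0.95, and with ACI 1, ACI 3 and ACI 4 at 0.88 to 0.91. Those 3 correlated among themselves at 0.95 to 0.96. Array medians were 102.1 in ACI 2 and 101.8 in ACI 5, and 77.4 to 81.2 in the other ACI arrays. A fit without F1 2, F1 3, ACI 2 and ACI 5 is among the alternatives. Changes of complexes, lists and representative probe sets of single genes in F1 are given with and without F1 2 and F1 3, and fits with a marker covariate with all arrays only.

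Across the 6 groups, complexes I and III differed in nearly every gene, and complex V in 1. The limma F test called 52 of the 89 member probe sets at an adjusted p under 0.05 (58.4%), against 51.8% of all tested probe sets. By gene, 22 of 24 complex I genes passed, with Sdha of complex II, 4 of 4 of complex III, 6 of 12 of complex IV, 1 of 9 of complex V and 3 of 5 of the associated genes. Without the F1 arrays, the 5 inbred strains differed in 38 of the 89 probe sets, against 43.8% of all tested. F344 had the highest group mean in 31 of the 55 genes (19 of 24 in complex I), and F1 had the lowest in 29 (16 of 24 in complex I). In complex V the lowest mean was that of BUF/N in 6 of 9 genes, and of F1 in 1. These ranks were counted in member genes only, so no share over all tested genes stands beside them.

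**Figure D1:**
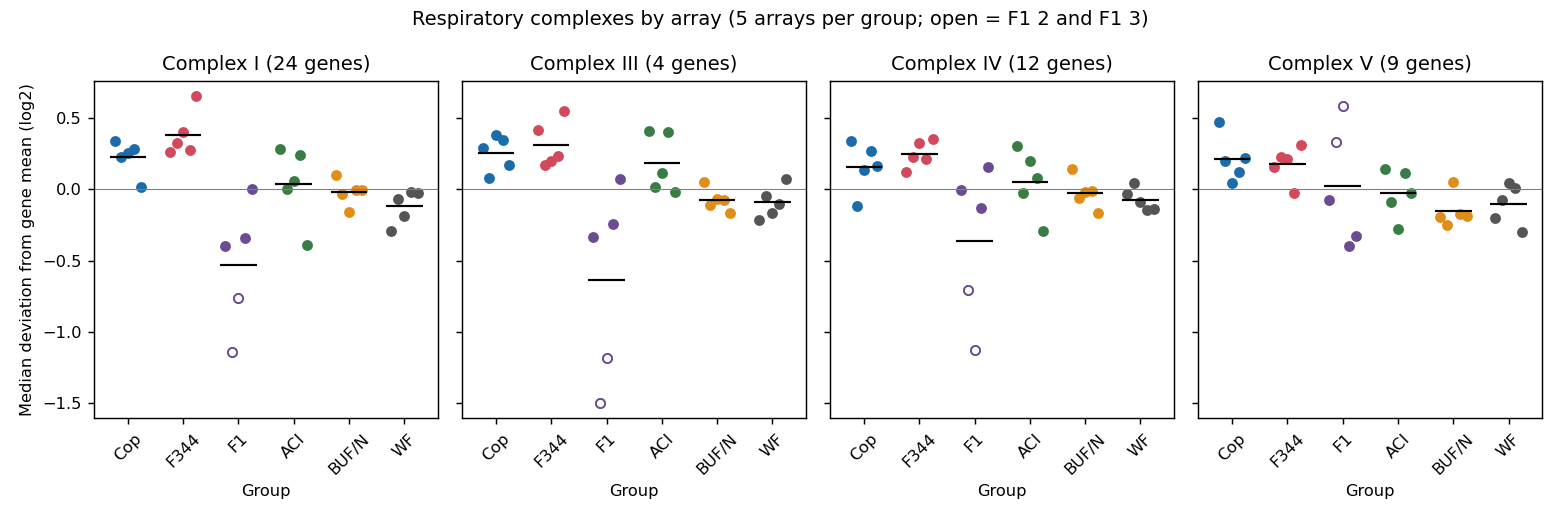
Median deviation of each complex's genes from their means over the 30 arrays (log2), by group. Points are arrays, horizontal bars are means of the 5 arrays, and open points are F1 2 and F1 3, which lie lowest of all 30 arrays in complexes I, III and IV, and above the other F1 arrays in complex V.

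Summarised by array, complex I deviated from its 30-array mean by 0.38 ± 0.16 log2 units in F344 (mean of the array medians, SD, n = 5) and by 0.22 ± 0.12 in Cop. ACI stood at 0.04 ± 0.27, BUF/N at -0.02 ± 0.09, WF at -0.12 ± 0.12 and F1 at -0.53 ± 0.44. F344 and F1 did not overlap: the F344 arrays ran from 0.26 to 0.65 and the F1 arrays from -1.14 to 0.00. BUF/N and WF, neighbours in this order, overlapped, with -0.16 to 0.10 and -0.29 to -0.02. In complex V, F1 stood at 0.02 ± 0.42, and its 5 arrays spanned both the lowest and the highest deviation of any group.

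In the F1 hybrid, most genes of complexes I and III were lower than the mean of the parental strains, 6 of 12 genes of complex IV were lower, and most genes of complex V were not called. For complexes III and IV these counts rest on F1 2 and F1 3. The limma contrast of F1 against the mean of Cop and F344 called 55 of 89 member probe sets, 61.8% against 35.2% of all tested. Of these, 4 were higher and 51 lower, whereas all calls were divided into 17.4% higher and 17.8% lower. Complex I had 20 of 24 genes lower and 1 higher, with a median log2 change of -0.77. Complex III had 3 of 4 lower (median -0.84), complex IV 6 of 12 lower and 1 higher (median -0.50), and complex V 2 of 9 lower (median -0.20), Atp5pd at -1.06 and Atp5pb at -0.53, both stalk subunits. Those 2 were not called without F1 2 and F1 3 (-0.06 and -0.17, adjusted p = 0.93 and 0.62), and complex V had 0 of 9 called with no filter, with median centring, or without Cop 1, Cop 3, Cop 5, F344 3 or F344 5. The median over all tested probe sets was 0.02.

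Without F1 2 and F1 3, the contrast called 39 of 89 member probe sets, 5 higher and 34 lower, against 20.5% of all tested (10.4% higher and 10.1% lower). Complex I still had 17 of 24 genes lower (median -0.54), while complex III had 1 of 4 (Uqcrc2, -0.83) and complex IV 3 of 12 lower and 2 higher (median -0.14). In complex V 5 of 9 were lower (median -0.41): Atp5f1a, Atp5f1c, Atp5f1d, Atp5f1e and Atp5po. Of the 55 probe sets called with all arrays, 28 were among the 39. F1 2 and F1 3 both lay below F1 1, F1 4 and F1 5 in 14 of 24 complex I genes, 3 of 4 of complex III and 6 of 12 of complex IV. In complex V they lay above in 6 of 9 genes and below in 2.

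**Figure D2:**
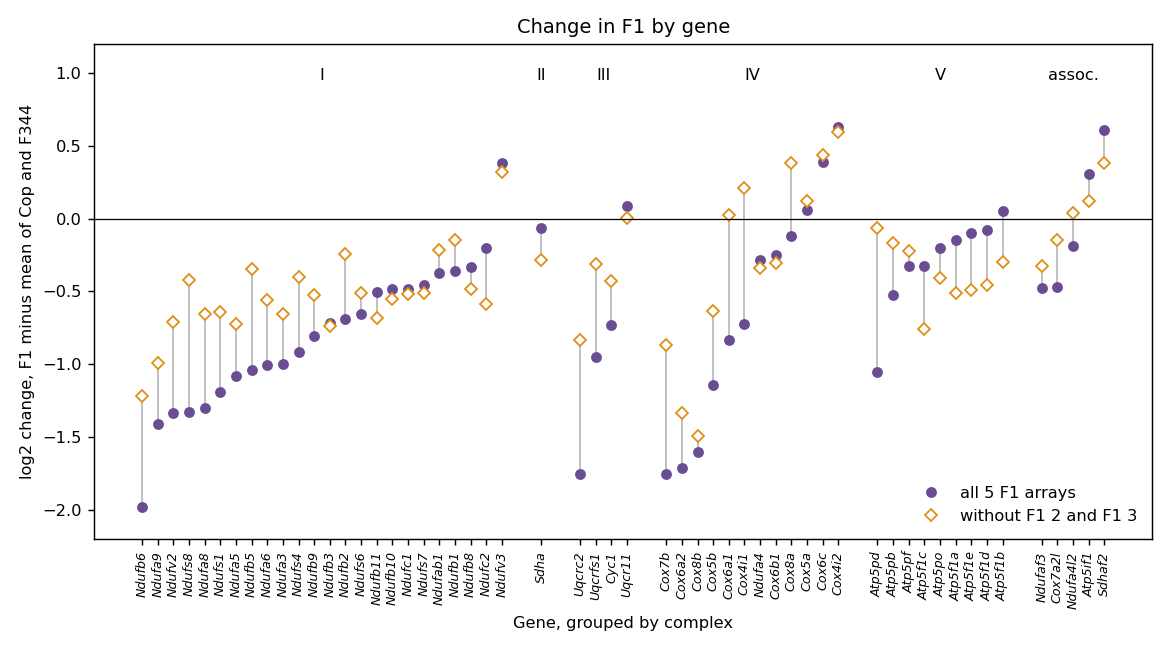
Log2 change of F1 against the mean of Cop and F344 for each of the 55 genes, grouped by complex, with all 5 F1 arrays (filled) and without F1 2 and F1 3 (open diamonds). Complex I medians are -0.77 and -0.54, and Cox4i1, Cox6a1 and Cox8a lie below 0 with all arrays and above 0 without those 2.

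Within complex I, the accessory subunit Ndufb6 had the smallest adjusted p. Its signals were 898, 647, 542, 763 and 569 in Cop, 579, 524, 769, 568 and 860 in F344 and 250.0, 74.4, 77.7, 276 and 328 in F1. Every F1 array lay below every parental array, with F1 2 and F1 3 lowest. The log2 change was -1.98 (SE 0.26, adjusted p = 2.1e-06), and -1.22 without those 2 arrays (adjusted p = 5.8e-05). A second, dimmer probe set of Ndufb6 was also lower, by a log2 change of -0.71, and was not called without those 2 arrays (-0.38, adjusted p = 0.13).

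Ndufa5, an accessory subunit of the arm that faces the matrix, read 863, 804, 858, 950 and 711 in Cop, 846, 859, 970, 907 and 1094 in F344, and 505, 254, 323, 475 and 628 in F1. Again the groups did not overlap. The change was -1.08 (SE 0.18, adjusted p = 3.7e-05), and -0.73 without F1 2 and F1 3 (adjusted p = 0.0039). Ndufa3, a small membrane-arm subunit, read 546, 279, 318, 492 and 584 in F1 against 706 to 770 in Cop and 883 to 1157 in F344 (-1.001, SE 0.18, adjusted p = 0.00014; -0.66 without F1 2 and F1 3, adjusted p = 0.013). The same separation, all 5 F1 arrays below all 10 parental arrays, held in 11 of 89 member probe sets (12.4%), against 3.65% of all tested. Separation in the other direction occurred in 0 of 89, against 4.19%. With F1 1, F1 4 and F1 5 alone, 21 of 89 lay wholly below the parents, against 6.77%.

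Ndufa9, an accessory subunit next to the quinone site, read 298, 136, 170, 284 and 360 in F1, with 322 to 843 in Cop and 516 to 864 in F344. The highest F1 array passed the lowest Cop array, so the groups overlapped by 1 Cop array. The change was -1.41 (SE 0.22, adjusted p = 3.2e-05), and -0.99 without F1 2 and F1 3 (adjusted p = 0.0036). Ndufs1, the core subunit that carries iron-sulphur clusters, was dim: 66.8, 27.0, 30.8, 67.4 and 93.3 in F1 against means of 96.6 ± 10.8 in Cop and 145 ± 32.7 in F344 (-1.19, SE 0.21, adjusted p = 9.8e-05; -0.64 without F1 2 and F1 3, adjusted p = 0.0084).

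Ndufb3, a membrane-arm subunit, showed no split between the F1 arrays. Its F1 signals were 695, 762, 744, 658 and 859, against 1315, 991, 1142, 764 and 1086 in Cop and 1492, 1401, 1410.0, 1209 and 1670 in F344. F1 2 and F1 3 lay inside the range of the other F1 arrays, and the change was nearly the same with them (-0.72, SE 0.15, adjusted p = 0.00052) and without them (-0.74, adjusted p = 0.0045). Ndufv3, a small subunit of the flavoprotein arm, was the 1 complex I gene called higher. It read 1397, 1330, 1483, 1210 and 1210 in F1 against 944 to 1251 in Cop and 821 to 1004 in F344 (0.38, SE 0.10, adjusted p = 0.0041; 0.32 without F1 2 and F1 3, adjusted p = 0.046). A dimmer probe set of Ndufv3 was called in the opposite direction (-0.42; -0.50 without F1 2 and F1 3, adjusted p = 0.053), so the gene's direction is uncertain.

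Sdha, the catalytic flavoprotein of complex II that also serves the citric acid cycle, was not called in F1. It read 1223, 1518, 1568, 1068 and 916 in F1, with F1 2 and F1 3 highest, against 1454 ± 184 in Cop and 1161 ± 141 in F344 (-0.07, SE 0.14, adjusted p = 0.75; -0.28 without F1 2 and F1 3, adjusted p = 0.20). Its assembly factor Sdhaf2, which attaches the flavin to Sdha, was higher: 1102, 1612, 1574, 1165 and 951 in F1 against 878 to 965 in Cop and 698 to 802 in F344. The change of 0.61 (SE 0.14, adjusted p = 0.0011) missed the threshold without F1 2 and F1 3 (0.38, adjusted p = 0.063). Ndufaf3, an assembly factor of complex I, was lower at -0.48 (SE 0.13, adjusted p = 0.0065), and not called without those 2 arrays (-0.33, adjusted p = 0.13). A second Ndufaf3 probe set was not called with all arrays (-0.33) and was called without F1 2 and F1 3 (-1.02, adjusted p = 0.0052). In it those 2 arrays lay above the other F1 arrays.

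In complex III, the Rieske iron-sulphur protein Uqcrfs1 read 1902, 670, 708, 1964 and 2406 in F1 against 1837 to 3017 in Cop and 2458 to 2964 in F344. Only F1 2 and F1 3 lay below every Cop array. The change was -0.95 (SE 0.21, adjusted p = 0.00083), and -0.31 without them (adjusted p = 0.079). Of the 3 probe sets of Uqcrfs1, this was the 1 called with all arrays. In another, F1 2 and F1 3 lay above the other F1 arrays, which all lay below every parental array. That probe set was called without F1 2 and F1 3 (-0.60, adjusted p = 0.018). The third changed by 0.07 without them (adjusted p = 0.78). Cyc1, the cytochrome that hands electrons to cytochrome c, read 896, 506, 741, 987 and 1241 in F1. Its change of -0.73 (SE 0.17, adjusted p = 0.0013) was -0.43 without F1 2 and F1 3 (adjusted p = 0.066). Uqcr11, the smallest subunit, was not called (0.08, SE 0.11, adjusted p = 0.57), nor without those 2 arrays (0.00097, adjusted p = 0.998).

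In complex IV the ubiquitous isoforms separated the F1 arrays from each other more than F1 from the parents. Cox4i1, the main form of a regulatory subunit, read 6940.0, 1454, 1101, 6466 and 5812 in F1, with 4728 to 6172 in Cop and 5223 to 5885 in F344. F1 2 and F1 3 were the lowest of all 30 arrays, and F1 1 and F1 4 lay above every parental array. The change was -0.73 (SE 0.28, adjusted p = 0.041) with all arrays and 0.21 (adjusted p = 0.19) without those 2. The 3 probe sets of Cox4i1 differed: in F1 2 and F1 3 a second read 355 and 330 beside 1670 to 1924 in the other F1 arrays, and the third read 2458 and 2897 beside 3414 to 4841.

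Cox6a1 read 3496, 697, 825, 3358 and 3287 in F1, with 3157 to 3725 in Cop. Its change of -0.84 (SE 0.25, adjusted p = 0.011) became 0.03 without F1 2 and F1 3 (adjusted p = 0.88). Cox8a read 5980.0, 2347, 2555, 6108 and 5441 in F1 and was not called with all arrays (-0.12, SE 0.18, adjusted p = 0.64). Without those 2 arrays it was higher by 0.38 (adjusted p = 0.034). Another Cox8a probe set read 2228 and 2642 in F1 2 and F1 3, inside or above the 2145 to 2251 of the other F1 arrays, and a further one 971 and 977 beside 5231 to 6103. Thus probe sets named for 1 gene gave unequal differences between the same arrays.

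Cox5b, a nuclear-encoded subunit that binds zinc, was lower in F1 whichever arrays were used. It read 1156, 454, 560.4, 1104 and 1427 in F1 against 1327 to 2114 in Cop and 1746 to 2470 in F344 (-1.14, SE 0.18, adjusted p = 3.5e-05; -0.63 without F1 2 and F1 3, adjusted p = 0.0020). Cox4i2, the isoform known for high expression in lung and for induction at low oxygen, was the 1 complex IV gene called higher. It read 393, 407, 442, 485 and 331 in F1, 244, 266, 285, 352 and 337 in Cop, and 249, 211, 266, 228 and 231 in F344. F1 5 lay inside the Cop range, and every other F1 array lay above both parents. The change was 0.63 (SE 0.12, adjusted p = 0.00016), and 0.60 without F1 2 and F1 3 (adjusted p = 0.0030).

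In complex V, the catalytic subunit Atp5f1b read 3257, 5182, 5596, 2407 and 3130 in F1, with 3436 to 4112 in Cop and 2945 to 3672 in F344. F1 2 and F1 3 were the highest of all 30 arrays, and F1 4 lay below every parental array. Its mean change was 0.06 (SE 0.15, adjusted p = 0.81), and -0.30 without F1 2 and F1 3 (adjusted p = 0.13). Atp5f1a, its partner in the catalytic head, read 744, 1274, 1339, 664 and 667 in F1, against 825 to 1205 in Cop and 825 to 1108 in F344. The change was -0.15 (SE 0.15, adjusted p = 0.48) with all arrays, and -0.51 (adjusted p = 0.0062) without F1 2 and F1 3, when all the other F1 arrays lay below the parents.

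**Figure D3:**
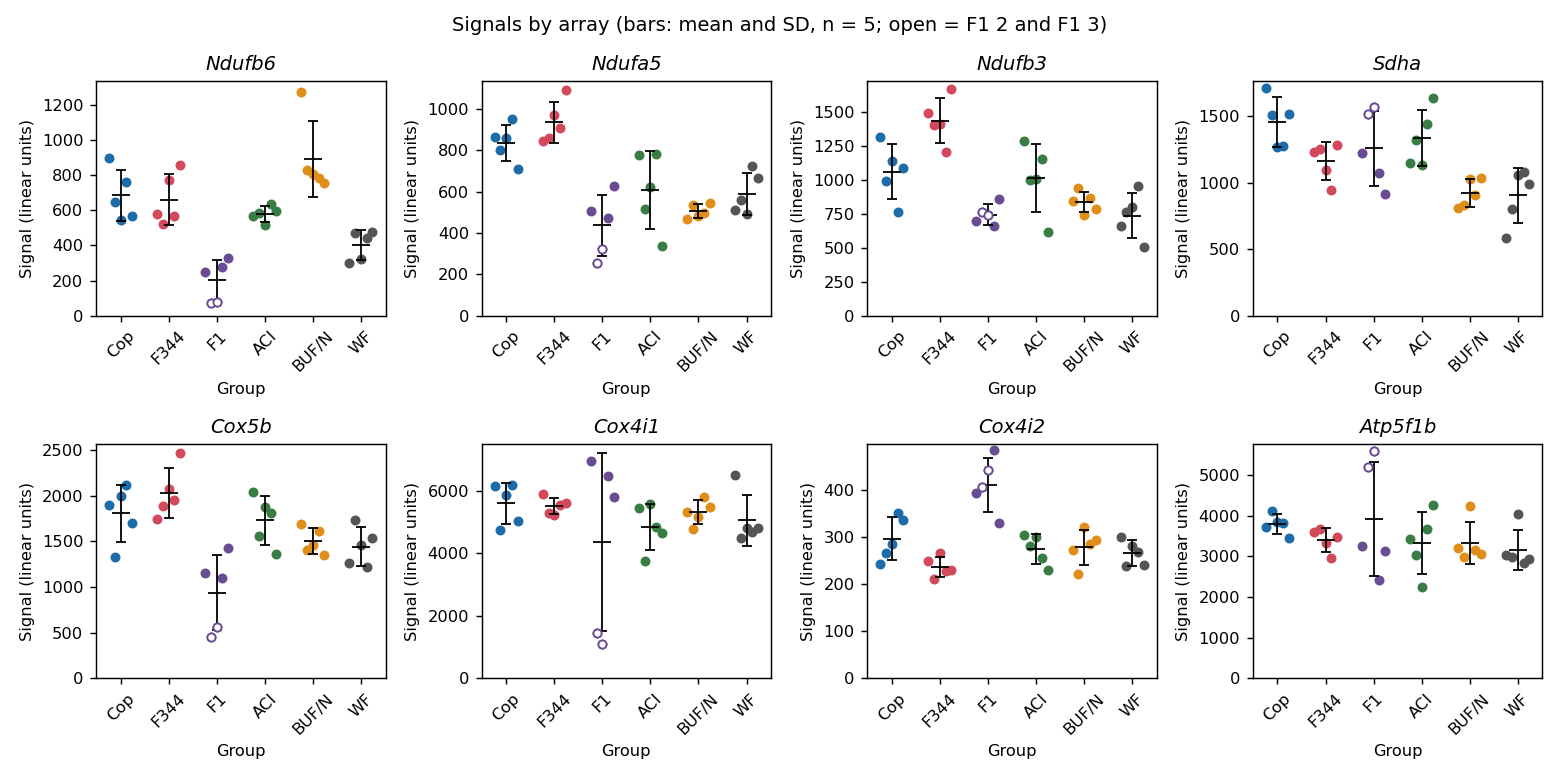
Deposited signals (linear units) of 8 genes in the 30 arrays. Points are arrays, black marks and bars are the mean and SD of 5, and open points are F1 2 and F1 3. Those 2 arrays are lowest for Cox4i1 (1454 and 1101), highest for Atp5f1b (5182 and 5596), and inside the F1 range for Ndufb3.

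Markers of other cell types moved with the F1 contrast. Skeletal muscle markers were lower in 13 of 19 tested genes (median -2.22), with summed signals of 980 to 4287 in F1, 1346 to 27342 in Cop and 6081 to 29851 in F344. Adipocyte markers were lower in 10 of 16 and higher in 1 (median -0.49), with sums of 31595 to 38814 in F1, 36265 to 44308 in Cop and 35625 to 42876 in F344. Luminal epithelial markers were higher in 9 of 11 (median 0.90), with sums of 15494 to 29919 in F1, 4064 to 9924 in Cop and 7476 to 11455 in F344. That list includes the milk protein genes Csn2, Csn3, Wap and Lalba, which make up much of the F1 sums. Csn3 averaged 6315 in F1, 768 in Cop and 1709 in F344, and Lalba 5220, 2009 and 2148. Among the other genes, Krt18 averaged 1327, 788 and 1018, and Epcam 1021, 725 and 1240. Basal markers were higher in 6 of 7. Of 2 tested brown adipocyte markers 1 was lower, and of 5 macrophage markers 1 was higher and 1 lower. These last 2 lists gave the same counts with F1 2 and F1 3 left out. Without F1 2 and F1 3, muscle markers were lower in 8 of 19 (median -1.97), adipocyte markers lower in 5 of 16 and higher in 1 (median -0.34), luminal markers higher in 9 of 11 (median 1.04) and basal markers higher in 5 of 7. With the mean of the muscle markers as a covariate, 27 of 89 member probe sets were called, against 15.7% of all tested. With the adipocyte mean as a covariate 1 of 89 was called, against 1.15% of all tested, and complex I had a median of -0.48. The part of these cell types in the F1 differences was not tested.

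The muscle isoforms of complex IV varied widely between arrays of 1 group and followed the muscle markers. Cox6a2 read 695, 124, 322, 338 and 137 in Cop, 211, 494, 391, 244 and 660.3 in F344, and 111, 67.8, 60.6, 139 and 121 in F1. The Cop arrays spanned 124 to 695, and 2 of them lay inside the F1 range. Against the parents, F1 changed by -1.71 (SE 0.36, adjusted p = 0.00060), and by -1.34 without F1 2 and F1 3 (adjusted p = 0.025). A second Cox6a2 probe set was called at -2.33 with all arrays, and not called without F1 2 and F1 3 (-1.71, adjusted p = 0.11). Cox8b read 282, 32.7, 117, 76.0 and 44.7 in Cop, 49.9, 123, 124, 250.0 and 248 in F344, and 46.8, 46.8, 20.5, 40.8 and 27.7 in F1. Its change was -1.60 (SE 0.49, adjusted p = 0.012), and -1.49 without F1 2 and F1 3 (adjusted p = 0.075). Its signals of 6.8 in WF 3 and 18.3 in BUF/N 1 were at or under the floor of 18.3.

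Over the 30 arrays, Cox6a2 followed the mean of the 19 skeletal muscle markers (Pearson's r = 0.90, Spearman's rho = 0.89, permutation p = 1e-05 for each, adjusted 2e-05 over 4 genes). That p is the smallest that 100000 permutations can give, and values were permuted over all 30 arrays without regard to group. It thus includes differences between groups, and no p was computed for the correlation within groups. Without the 2 arrays farthest from the median of the markers r was 0.87, and within groups, after subtracting group means, it was 0.86. Cox8b behaved alike, with r = 0.89, rho = 0.90 (permutation p = 1e-05 for each), 0.87 without the 2 farthest arrays and 0.84 within groups. The ubiquitous partners did not pass: Cox6a1 had r = 0.29 (permutation p = 0.13) and rho = 0.23 (p = 0.22), and Cox8a r = 0.12 (p = 0.53) and rho = -0.04 (p = 0.84). With the muscle mean as a covariate, the F1 change was -0.53 for Cox6a2 (adjusted p = 0.13) and -0.04 for Cox8b (adjusted p = 0.95).

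**Figure D4:**
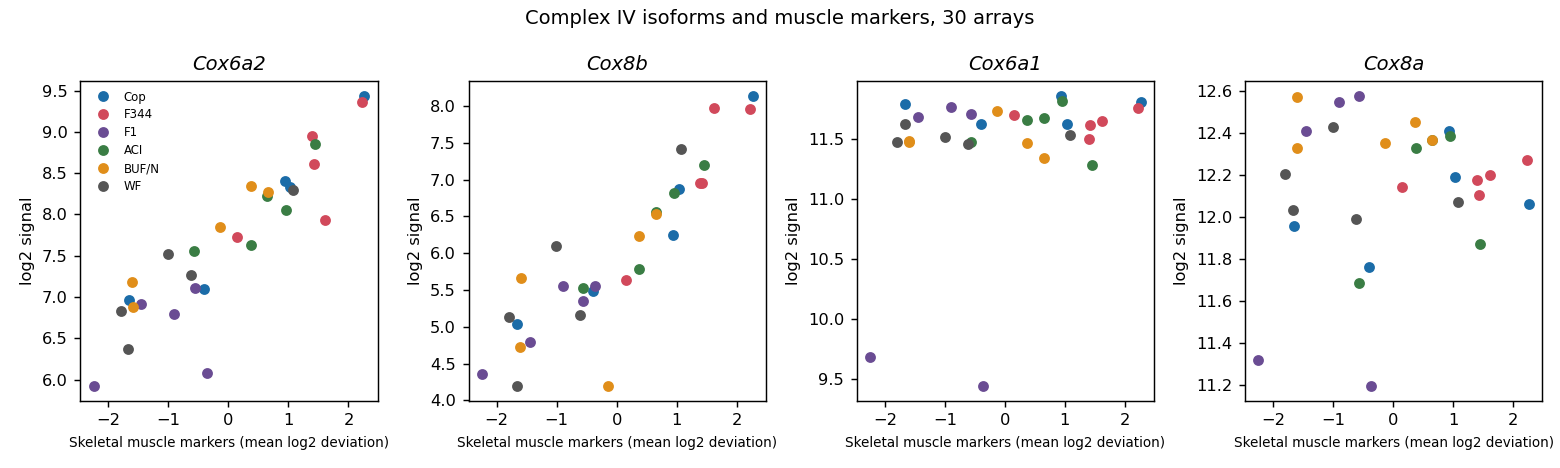
Log2 signal of 4 complex IV isoforms against the mean log2 deviation of 19 skeletal muscle markers, 1 point per array (30 arrays), coloured by group. Cox6a2 and Cox8b rise along the axis (r = 0.90 and 0.89), whereas Cox6a1 and Cox8a stay in a narrow band apart from F1 2 and F1 3.

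Between the parental strains no member passed the test. The limma contrast of Cop against F344 called 0 of 89, against 3.45% of all tested (1.69% higher and 1.77% lower in Cop). An unadjusted p under 0.05 was reached by 11 of 89 members, against 709 of all 5039 tested. Complex I genes had a median log2 difference of -0.18, and 4 of 24 were higher in Cop. Array weights called 5 (9.53% of all tested) and a fit on the compared arrays alone 2 (5.79%). A fit without F1 2, F1 3, ACI 2 and ACI 5 called 3 (5.76%). The median over all 55 genes was -0.10, against 0.03 for all tested probe sets.

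F344 was the inbred strain with the highest complex I signals. Against the mean of the other 4 inbred strains, 11 of 89 member probe sets were higher and 0 lower, 12.4% against 12.3% of all tested called in either direction, and against 4.41% called higher and 7.92% lower. They stood for Ndufa3, Ndufa5, Ndufa9, Ndufb3, Ndufb10, Ndufs1, Cyc1, Cox6b1 and other probe sets of Cox6b1, Cox8b and Ndufb6, some of them named after their values were seen. The complex I median was 0.37, with 23 of 24 genes higher in sign, against a median of -0.05 over all tested probe sets. Ndufb3 at 1436 ± 167 (SD, n = 5) stood above Cop at 1059.6 ± 203, ACI at 1013 ± 252, BUF/N at 835 ± 75.4 and WF at 737 ± 168 (0.69, SE 0.14, adjusted p = 0.0011).

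All 5 F344 arrays of Ndufa3, from 883 to 1157, lay above every array of the other groups (0.75, SE 0.17, adjusted p = 0.0033). Cox6b1, the complex IV subunit at the dimer interface, read 2930.0, 2880, 2829, 2827 and 3037 in F344, with 1687 to 3380 in Cop (0.46, SE 0.12, adjusted p = 0.013). Ndufa5 was 0.60 higher (SE 0.16, adjusted p = 0.014). Skeletal muscle markers were higher in 7 of 19 and lower in 1 (median 1.68). With their mean as a covariate 3 of 89 members were called, against 4.27% of all tested. The part of muscle in the F344 differences was not tested. The count was 4 without F344 5, 6 without F344 3, 7 without F344 2 and 17 without F1 2. Median centring, which moved the median of all tested probe sets in this contrast from -0.05 to 0.09, gave 23 higher and 0 lower. It called 11.8% of all tested in either direction.

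BUF/N was lower in 8 of 89 member probe sets and higher in 0, 8.99% against 18% of all tested (8.43% higher and 9.61% lower). Ndufa5 read 470.1, 537, 484, 497 and 545 in BUF/N, and each lay below every Cop and F344 array (-0.50, SE 0.16, adjusted p = 0.029). Ndufs1 at 72.7 ± 12.6 was lower by -0.56 (SE 0.19, adjusted p = 0.042), Ndufaf3 at 181 ± 23.5 by -0.35 (SE 0.12, adjusted p = 0.048) and Sdha at 922 ± 105 by -0.36 (SE 0.13, adjusted p = 0.049). The other 4 were further probe sets of Cox6b1, Ndufv3 and Uqcrfs1 and 1 of Atp5pf, named after their values were seen. These calls lay close to the threshold, and the count was 3 without BUF/N 3 or BUF/N 4, 4 without BUF/N 2, and 5 without BUF/N 1, BUF/N 5, F344 3, ACI 4, WF 2, WF 4 or WF 5. It was 13 or 14 without F1 2, F1 3 or F1 5.

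Ndufb6 went the other way in BUF/N. It read 1275, 828, 807, 783 and 757 there, against 514 to 636 in ACI and 301 to 475 in WF. The BUF/N arrays overlapped Cop (542 to 898) and F344 (524 to 860). The change of 0.64 (SE 0.23) had an adjusted p of 0.057, and passed with quantile normalization (adjusted p = 0.030) and with array weights (adjusted p = 0.0030). Its second probe set changed by -0.11 in BUF/N (adjusted p = 0.66). In complex V, 8 of 9 genes had a negative sign in BUF/N (median -0.30), with no gene called. Luminal markers were higher in 8 of 11 and adipocyte markers lower in 4 of 16 in this contrast.

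WF was lower in 3 of 89 member probe sets and higher in 0, 3.37% against 6.17% of all tested (2.8% lower). Ndufb3 at 737 ± 168 was lower by -0.54 (SE 0.14, adjusted p = 0.013), Ndufb6 at 403 ± 85.5 by -0.79 (SE 0.23, adjusted p = 0.039) and Sdha by -0.44 (SE 0.13, adjusted p = 0.040). Sdha read 585, 799, 1059, 1083 and 989 in WF, and all 5 lay below every Cop and ACI array. The count was 0 without WF 5, 1 without WF 1, WF 2, Cop 1 or F344 5, and 5 without F1 2 or ACI 5. Skeletal muscle markers had a median of -1.43 in WF, with 1 of 19 called. Basal markers were higher in 4 of 7 and luminal markers in 3 of 11, and adipocyte markers were lower in 3 of 16. Their part in the WF differences was not tested.

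Cop was higher in 4 of 89 member probe sets and lower in 1, 5.62% against 11.7% of all tested (5.54% higher and 6.21% lower). Sdha read 1706, 1504, 1268, 1277 and 1517 in Cop, and it was higher by 0.46 (SE 0.13, adjusted p = 0.019). Uqcr11 at 2416 ± 212 was higher by 0.31 (SE 0.10, adjusted p = 0.033). The other calls were further probe sets of Ndufv3 (0.71) and Uqcrfs1 (0.60) and, lower, Ndufb8 (-1.03), named after their values were seen. The count was 2 without Cop 1 or Cop 2. In Cop, luminal markers were lower in 10 of 11 and basal markers in 5 of 7, adipocyte markers were higher in 6 of 16 and lower in 1, and macrophage markers were higher in 3 of 5. Their part in the Cop differences was not tested. ACI had 0 of 89 members called, against 8.57% of all tested (4.23% higher and 4.35% lower). An unadjusted p under 0.05 was reached by 9 members in ACI, against 1271 of all 5039 tested. ACI gave 4 under quantile normalization (10.2% of all tested) and 6 under median centring (11.6%), and 4 without ACI 1.

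Sdha thus stood highest in Cop and lowest in WF and BUF/N, an order unlike that of complex I, which F344 led. By group mean the Sdha order was Cop at 1454, ACI at 1333, F1 at 1258, F344 at 1161, BUF/N at 922 and WF at 903. BUF/N and WF differed by less than their SDs of 105 and 209.6. Cop and ACI also differed by less than theirs, 184 and 211.

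Other mitochondrial genes were measured from fixed lists. The biogenesis and assembly list of 27 genes had 6 on the array and 5 tested: Esrra, Hspd1, Hspe1, Hspa9 and Phb2. In F1, 4 of 9 citric acid cycle genes, 4 of 14 genes of electron entry and carriers, and 4 of 5 biogenesis and assembly genes were lower and none of these lists had a gene called higher, against 17.8% lower and 17.4% higher over all tested probe sets. Of 6 mitochondrial antioxidants, 3 were lower and 1 higher. Without F1 2 and F1 3, the lower counts were 3 of 9, 3 of 14, 3 of 5 and 1 of 6, with none higher, against 10.1% lower over all tested. Hspa9, the import chaperone of the matrix, had the smallest adjusted p of them, at 156 ± 54.9 in F1 against 539 ± 130 in Cop and 507 ± 68.4 in F344 (-1.79, SE 0.17, adjusted p = 5.8e-08). Etfdh, which passes electrons from fatty acid oxidation to the quinone pool, changed by -1.53 (SE 0.26, adjusted p = 5.3e-05), and Sod2, the matrix superoxide dismutase, by -1.42 (SE 0.24, adjusted p = 5.7e-05). Without F1 2 and F1 3 the changes were -2.13 for Hspa9 (adjusted p = 8.6e-09), -0.81 for Etfdh (adjusted p = 0.0041) and -1.15 for Sod2 (adjusted p = 0.0042). These 3 were named after their values were seen.

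Among inbred strains, 5 of 9 citric acid cycle genes were lower in BUF/N and 4 in WF, against 9.61% and 2.8% of all tested. Higher were 4 in ACI, 3 in Cop and 2 in F344, against 4.23%, 5.54% and 4.41%. Of 14 genes of electron entry and carriers, 2 were lower and 1 higher in BUF/N, and 2 lower in F344. WF and Cop each had 1 higher. Of 5 biogenesis and assembly genes, 2 were lower in BUF/N, 1 was higher in WF and in Cop, and none was called in F344. In each of these lists ACI had 1 higher and 1 lower. No mitochondrial antioxidant was called in any inbred strain. Pdhb, a subunit of pyruvate dehydrogenase named, like Pc, after its values were seen, was lower by -1.11 in BUF/N (SE 0.20, adjusted p = 0.00036) and by -0.73 in WF (SE 0.20, adjusted p = 0.029), and higher by 0.76 in F344 (SE 0.20, adjusted p = 0.015). Pc, pyruvate carboxylase, changed by -0.90 in BUF/N (SE 0.17, adjusted p = 0.00051) and by 0.997 in F344 (SE 0.17, adjusted p = 0.00024). These strain contrasts share arrays, since each strain enters the mean that the others are set against.

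**Figure D5:**
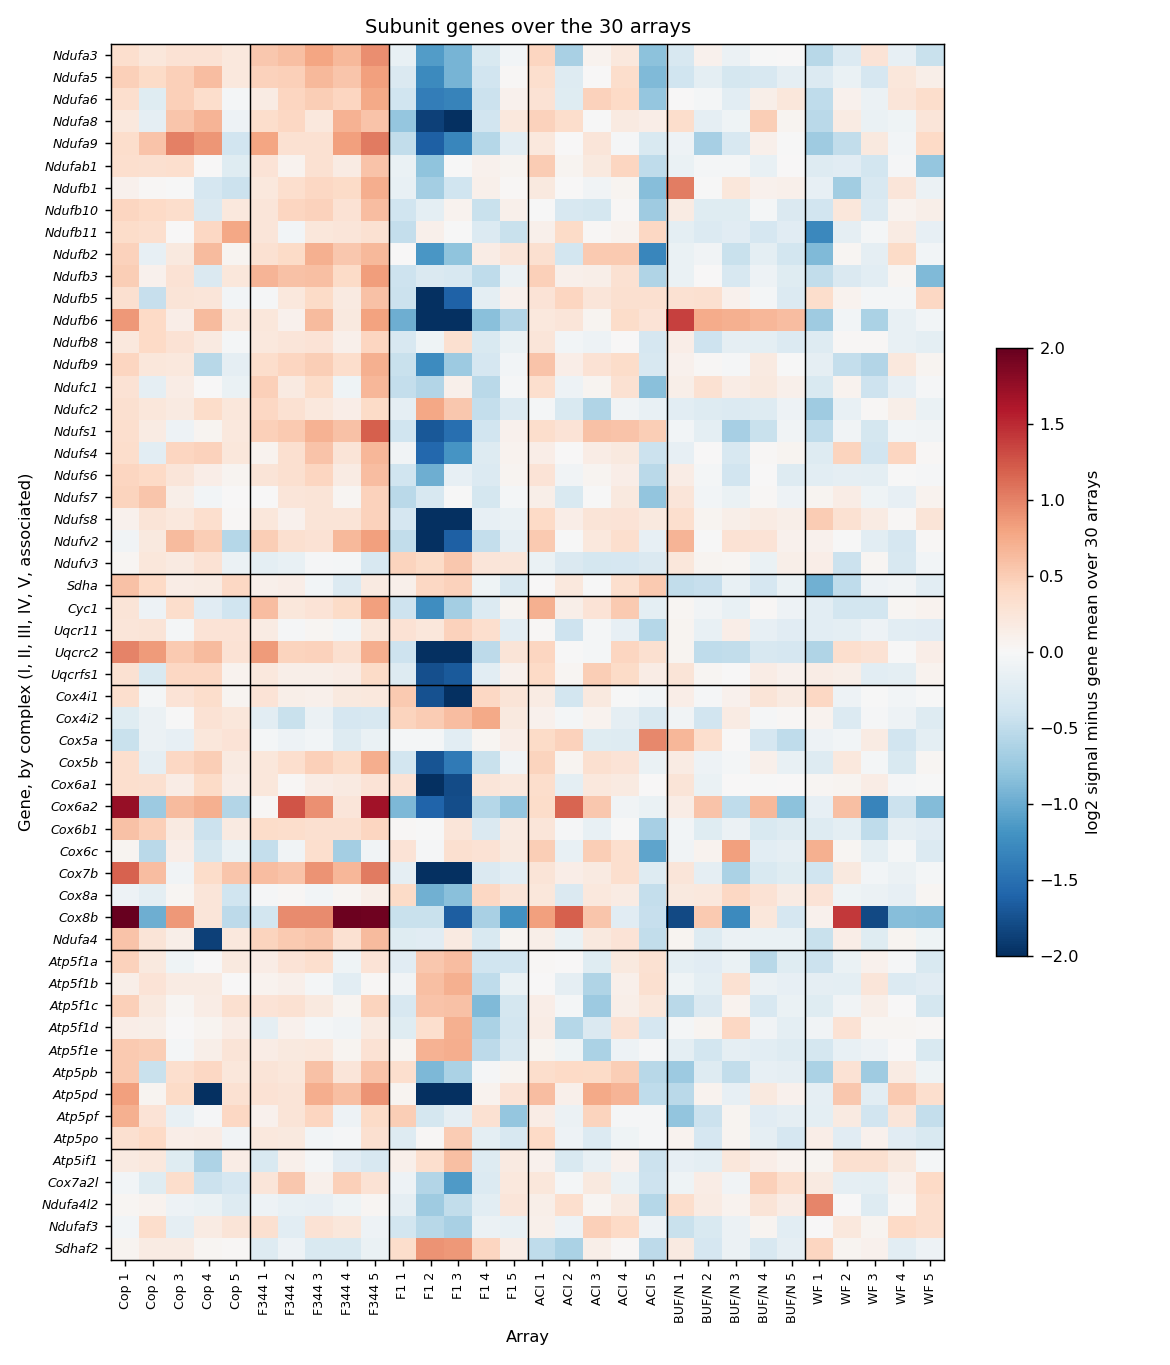
Log2 signal minus the gene's mean over 30 arrays, for the 55 genes (rows, by complex) and 30 arrays (columns, by group), with colours limited to -2 to 2. F1 2 and F1 3 are dark blue for many genes of complexes I, III and IV and red for several of complex V, and F344 is red across complex I.

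Of the 26 genes with several tested probe sets, the F1 contrast called all of them in 9 genes, some in 13 and none in 4. The sign differed between probe sets in 4 genes: Atp5f1e, Ndufs8, Ndufv3 and Uqcr11. Ndufs8, a core iron-sulphur subunit, ranged from -1.33 to 0.10 with all arrays and from -0.43 to 0.84 without F1 2 and F1 3, and Ndufb8 from -1.84 to -0.15 with all arrays and from -0.97 to 0.74 without F1 2 and F1 3. These 2 were chosen after their values were seen. For the beta-actin control, 3′ signal over 5′ signal was lowest among the F1 arrays in F1 2 and F1 3, at 1.49 and 1.27 beside 1.58 to 1.98. The same ratio for the GAPDH control was 0.868 and 0.978 in those 2 arrays beside 0.970 to 1.07. The part of RNA quality in the differences between F1 arrays was not tested.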

How the data were processed

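RNA from normal mammary gland was hybridised to an Affymetrix rat array, and the intensity values used here are the linear signals the authors deposited, made with Affymetrix Microarray Suite 5.0 per the labels. The scaling settings are not given in the sources used here. All 30 single-sample arrays were used in the comparisons, and 2 pools (Cop and F344) were left out of them. Array number limits the precision: 5 per group.

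Signals were floored at the 25th percentile of all values (18.3) and put on the log2 scale, 59 control probe sets were left out, and testing required a signal above the median on at least 5 arrays. Differences were fitted over all 5039 tested probe sets with limma 3.58.1 in R 4.3.3 (eBayes with trend, Benjamini-Hochberg adjustment, threshold 0.05), with 1 spread for the 6 groups and no covariate. Log2 changes understate differences near the floor. Symbols came from the platform annotation, updated through gene identifiers, for 4201 tested probe sets with 1 symbol. The fit was checked on simulated data with independent noise, which held no sets like those of the F1 and ACI arrays. Promoters came from the RefSeq table (GRCr8).

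Named genes were, per contrast and direction, up to 4 with the smallest adjusted p among those called, the 6 with the smallest adjusted p in the F test, and a fixed set of isoforms and catalytic subunits whatever their result. The members and lists were chosen with earlier results of these data known. Other floors, an offset, filters, quantile normalization, median centring, array weights, a replicate block, marker covariates and left-out arrays were tried as alternatives.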

Additional observations from a re-analysis of the deposited data

Results flagged for a closer look

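Of 162 sets of 5 arrays examined (the named genes and the complex medians in each group), 10 held 1 array apart from the other 4 by Dixon's criterion (a gap over 0.71 of the range). Chance gives about 1 in 20 such sets. Ndufb6 read 1275 in BUF/N 1, above 757 to 828 in the others. Uqcr11 read 2042 in Cop 3, below 2460.0 to 2537, and 1941 in WF 3, above 1777 to 1821. Cox6b1 read 1583 in WF 3, below 1884 to 2000. Ndufs1 read 201 in F344 5, above 122 to 143. Cox4i1 read 6496 in WF 1, above 4497 to 4805. Atp5f1a read 598 in BUF/N 4, below 740.2 to 798. Atp5f1b read 4228 in BUF/N 3, above 2972 to 3213, and 4035 in WF 3, above 2823 to 3019. The complex V median deviation was 0.054 in BUF/N 3, above -0.25 to -0.17 in the other BUF/N arrays.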

How the results depend on the processing

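Counts of member probe sets called kept within 1.5 times the reported value, except as follows. Percentages in parentheses are the share of all tested probe sets called under the same setting. ACI (0 reported) gave 1 with the floor at the 40th percentile (9.19%), 1 with an offset of 50 (9.15%) and 2 with no filter (6.98%). ACI also gave 4 with quantile normalization (10.2%), 6 with median centring (11.6%) and 1 with the adipocyte covariate (11.1%). BUF/N (8) gave 28 with array weights (33.4%) and 13 with the adipocyte covariate (13.9%). Without F1 2, F1 3, ACI 2 and ACI 5 it gave 24 (28%). Cop against F344 (0) gave 5 with array weights (9.53%), 3 without those 4 arrays (5.76%) and 2 with only the compared arrays (5.79%). Cop (5) gave 11 with array weights (18.1%), 12 without the 4 arrays (19.5%) and 12 with the adipocyte covariate (13.5%). F344 (11) gave 39, 24 and 7 under those settings (28.2%, 17.3% and 7.16%). F344 also gave 23 with median centring (11.8%) and 3 with the muscle covariate (4.27%). WF (3) gave 7 with array weights (10.1%), 14 without the 4 arrays (9.21%) and 5 with the floor at the 40th percentile (6.39%). It gave 1 with no filter (2.8%) or with the muscle covariate (3.45%). F1 (55) gave 27 with the muscle covariate (15.7%) and 1 with the adipocyte covariate (1.15%). Leaving out each array in turn gave 0 to 4 for ACI, 3 to 14 for BUF/N, 0 to 1 for Cop against F344, 2 to 7 for Cop, 42 to 57 for F1, 4 to 17 for F344, 0 to 5 for WF and 41 to 58 for the F test. The shares of all tested probe sets are not given here for these single-array counts. The cause of the changes under all these settings was not tested.

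In the F1 contrast, signs turned for Cox4i1 (0.089 with array weights, 0.15 with the adipocyte covariate, 0.21 without the 4 arrays and 0.21 without F1 2 and F1 3), Cox6a1 (0.027 under both omissions) and Cox8a (0.31 with array weights, 0.38 under both omissions). Leaving out F1 2 and F1 3 together (for the lists too), and the F test on the 25 inbred arrays (38), were chosen after seeing the data. Median centring moved the median of all probe sets by over 0.1 in F344 (to 0.09), ACI (to -0.11) and Cop (to 0.07), and the share of calls that were higher from 35.7% to 68.9%, from 49.3% to 16% and from 47.1% to 67.4%. Of 161 named results, 155 kept their call and direction under it.

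Arrays of the same number showed no common deviation (correlations of -0.45 to 0.40), which cannot exclude shared handling of some of them. With the replicate block, 53 members were called in F1 (34.4% of all tested), 48 in the F test (48.7%), 11 in F344 (11.5%) and 8 in BUF/N (17%). It called 5 in Cop (11.3%), 2 in WF (5.72%), and 0 in ACI (7.96%) and in Cop against F344 (3.45%). With this block, complex V had 0 of 9 genes called in F1. Signals near the floor limit Cox8b and Ndufs1.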

Other observations

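The 2 pools, 1 of Cop and 1 of F344 RNA, entered no comparison and have no replicates. Over the 55 genes, the log2 ratio of the Cop pool to the F344 pool had a median of -0.05 and ran from -1.12 to 0.51, and 25 genes were higher in the Cop pool. The 1 gene beyond a 2-fold difference was the muscle isoform Cox6a2, at 255 in the Cop pool and 553 in the F344 pool. Cox8b read 94.4 and 139.9. Ndufb3 read 1333 in the Cop pool and 1094 in the F344 pool, whereas the single F344 arrays had the higher mean (1436 beside 1059.6).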
